A study of Mus musculus with 14 samples.

Results

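The genes described here are the survival and death genes of the BCL2 family: Bcl2, Bcl2l1 (the gene of BCL-XL), Mcl1, Bak1, Bax, and the BH3-only genes Bcl2l11 (BIM), Bid, Bad, Pmaip1 (NOXA) and Bbc3 (PUMA). They were chosen by symbol: each probe set that the platform annotation gave to 1 of the 10 genes was taken. This found 29 probe sets of 9 genes, out of 45037 probe sets and 18193 genes on the array. No probe set carried the symbol Bax, which was not analysed here.

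Gene expression had been measured as log2 values on 14 Affymetrix arrays, with RNA from mouse embryonic blood at the stage E12.5. Each RNA came from a pool of blood of 8 to 10 embryos of 1 genotype. The first cross mated mice carrying the fusion allele, labelled Cbfb+/MYH11, with C57/Bl6 mice. It gave Cbfb+/MYH11 embryos (4 arrays), which have 1 Cbfb allele replaced by a fusion with the smooth muscle myosin gene MYH11, and wild-type littermates labelled WT (4 arrays). The design text calls the parents that carried the fusion chimeras. The second cross mated Cbfb+/- mice with each other and gave Cbfb-/- embryos (3 arrays) and littermates labelled Cbfb+/+ (3 arrays). Cbfb is the partner of the RUNX transcription factors, and this fusion is found in a form of acute myeloid leukaemia in humans. WT and Cbfb+/+ are the same genotype from different crosses. Since the labels name arrays of 1 group as technical replicates, p-values below reflect only how much arrays vary, and this may be technical.

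BCL2 proteins decide whether the outer mitochondrial membrane is opened. BCL2, BCL-XL and MCL1 hold the effectors BAX and BAK in check, and the BH3-only proteins either neutralise these guards or activate the effectors directly. In red cell precursors BCL-XL is the best known survival member, induced through the erythropoietin receptor, STAT5 and GATA1, and MCL1 is needed by blood stem and progenitor cells.

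Of the 29 probe sets, 13 of 5 genes reached a log2 value of 6 on at least 3 arrays. These were 6 of Mcl1, 3 of Bcl2l1, 2 of Bcl2l11 and 1 each of Bad and Bbc3. The other 16 lay lower, among them all those of Bcl2, Bak1, Bid and Pmaip1, and values below 6 may be background. Levels of different probe sets cannot be compared with each other, because each binds RNA with its own strength. The array medians lay between 4.27 and 4.46. Red cell markers identified the tissue: 6 of 6 genes measured reached 6, with array means of 12.54 to 12.80 in Cbfb+/MYH11, 12.36 to 12.47 in WT, 12.43 to 12.44 in Cbfb-/- and 12.58 to 12.60 in Cbfb+/+. The probe set of Cbfb itself gave 6.91 to 8.56 in Cbfb+/MYH11 and 6.57 to 8.31 in WT. It gave 6.80 to 7.03 in Cbfb-/- and 6.27 to 6.56 in Cbfb+/+, and was called in neither comparison (limma, adjusted p = 0.57 and 0.549). Whether it covers the altered stretch of Cbfb is unknown here, so no genotype was checked by it.

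Arrays 1 and 2 of each genotype of the first cross resembled each other, as did arrays 3 and 4. The SD of the log2 differences between 2 arrays was 0.114 to 0.276 within these pairs and 0.365 to 0.714 between them, and 0.199 to 0.218 in the second cross. Effects are therefore also given within each pair below, from a fit whose p-values reflect the spread inside pairs only.

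The promoter sequences below show the stretch of 250 bases just before an annotated start of 3 of the genes, 5′ to 3′ on the strand of the gene, from RefSeq (GRCm38.p6). Capitals mark a RUNX core (TGTGGT) or a GATA core (GATAA), which were searched on both strands along with the STAT5 element TTCNNNGAA, and neither core overlaps the other where it was found. Mcl1 is shown because it was the member called on most probe sets, and the others because they held the only matches among 15 annotated starts of 9 genes, with Bax included and Pmaip1 left out. Mcl1 (chr3:95658471-95658720, plus strand), Bcl2l1 start 1 (chr2:152828490-152828739, minus strand) and Bak1 (chr17:27028628-27028877, minus strand) read:
Mcl1: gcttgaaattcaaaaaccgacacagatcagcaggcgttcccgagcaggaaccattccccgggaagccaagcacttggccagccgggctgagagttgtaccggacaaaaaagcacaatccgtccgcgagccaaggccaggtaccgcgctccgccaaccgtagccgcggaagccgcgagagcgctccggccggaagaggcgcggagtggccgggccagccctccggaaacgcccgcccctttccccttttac
Bcl2l1: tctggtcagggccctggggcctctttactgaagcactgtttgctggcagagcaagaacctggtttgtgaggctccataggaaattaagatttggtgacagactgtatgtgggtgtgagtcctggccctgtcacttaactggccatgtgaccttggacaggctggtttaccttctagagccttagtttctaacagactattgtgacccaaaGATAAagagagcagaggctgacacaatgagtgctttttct
Bak1: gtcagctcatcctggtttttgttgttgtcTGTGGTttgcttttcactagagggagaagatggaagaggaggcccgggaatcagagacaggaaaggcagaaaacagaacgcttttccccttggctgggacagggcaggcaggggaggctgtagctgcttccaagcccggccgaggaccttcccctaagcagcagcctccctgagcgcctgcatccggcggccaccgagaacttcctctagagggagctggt
Of all 32851 promoters of this length in the table, 14% held the RUNX core, 22.6% the GATA core and 7.02% the STAT5 element. The 1 RUNX core among the members lies before Bak1, and the 1 GATA core before start 1 of Bcl2l1, one of 3 starts of that gene. A match is a stretch of letters and not a shown binding site.

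The first comparison, Cbfb+/MYH11 against WT, addresses the fusion allele. Mcl1 was higher and Bcl2l1 lower in Cbfb+/MYH11, so the main survival genes of the family went in opposite directions. Of the 29 probe sets, 6 rose and 3 fell by 1.5-fold or more with an adjusted p below 0.05 (limma, Benjamini-Hochberg over all probe sets). That is 20.7% and 10.3% of them, against 10.5% and 2.94% of all 45037 probe sets. With only probe sets at 6 or more on at least 3 arrays fitted, 5 of 13 rose and 2 fell, against 3701 and 687 of all 12190. Of the 6 that rose 4 read Mcl1, so they are not separate genes, and the others read Bad and Bak1. The 3 that fell read Bcl2l1, on 2 probe sets, and Bcl2l11. All Cbfb+/MYH11 arrays lay above all WT arrays for 7 probe sets (13.9% of all probe sets did) and below them for 6 (12.1%). The median log2 difference over the 29 was -0.17, against -0.11 over all probe sets. Brighter probe sets lay higher: over the 13 members at 6 or more on at least 3 arrays the median was 0.49. Over all 12190 at that level, which include every Mcl1 probe set, it was 0.27. With each array pair averaged to 1 putative pool, 0 of the 29 were called here (limma; 8 at an unadjusted p under 0.05). The same setting called 0 of the 29 in Cbfb-/- against Cbfb+/+ (limma; 1 at an unadjusted p under 0.05), 0 in the difference between the 2 effects (limma; 0) and 0 in Cbfb+/+ against WT (limma; 2). Of all 45037 probe sets, 6306, 1728, 1924 and 1736 had an unadjusted p under 0.05 in this setting, in the same order of comparisons.

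**Figure D1:**
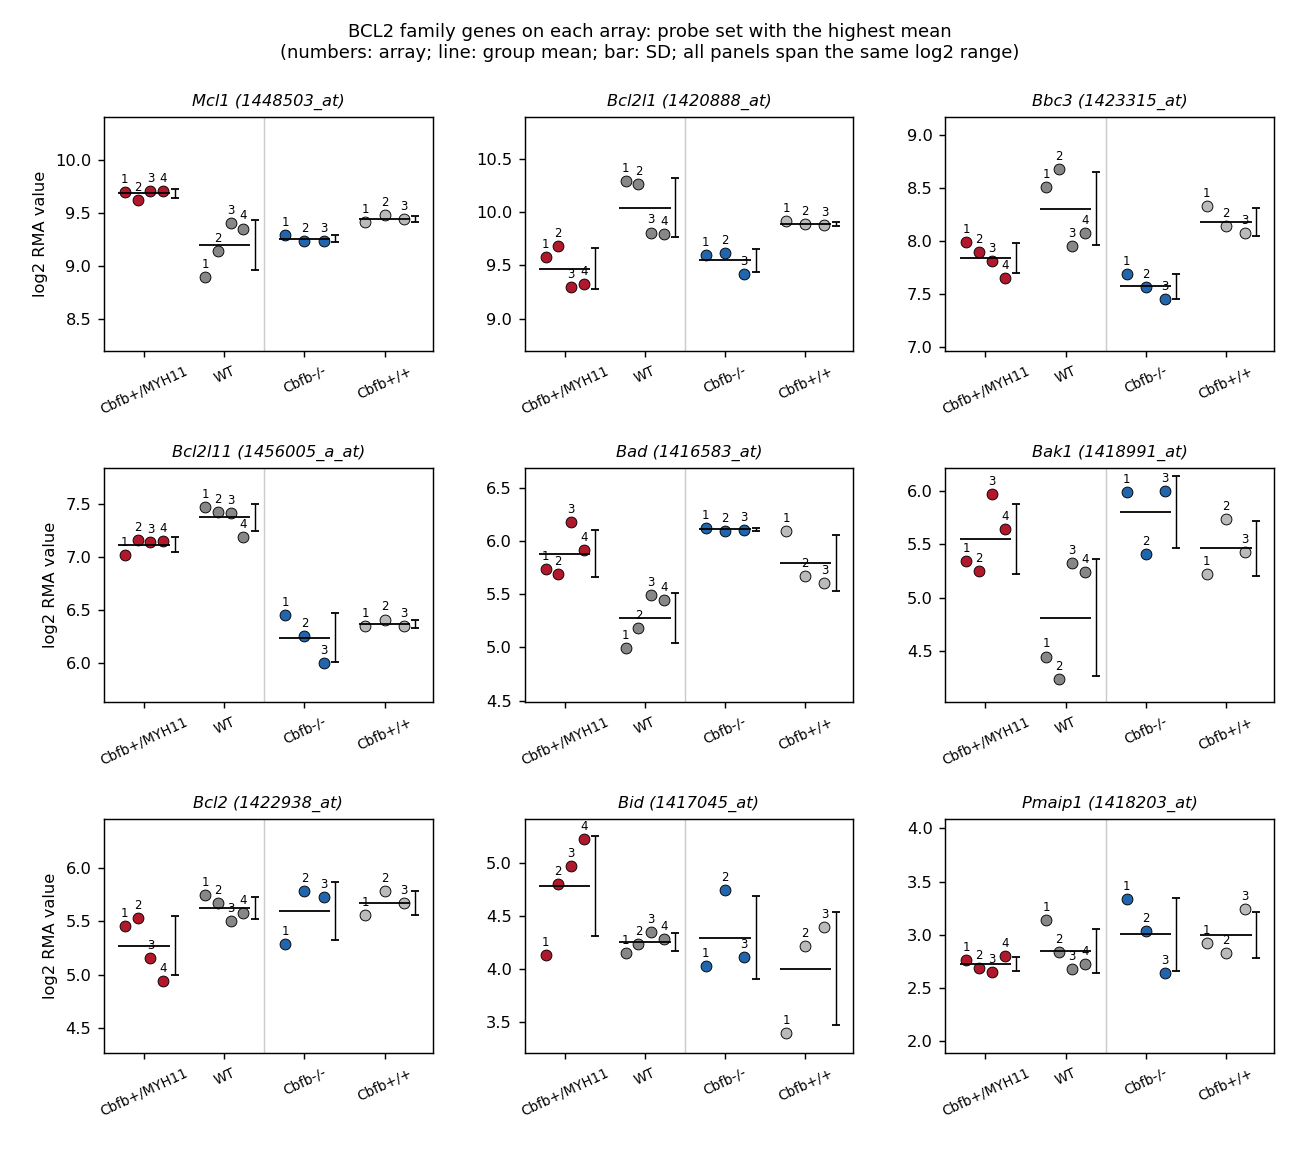
Log2 RMA values (y axis) of the probe set with the highest mean of each of the 9 genes on each array, by group (x axis). Numbers mark arrays, lines the group mean and bars the SD. The Cbfb+/MYH11 arrays of Mcl1 lie above the WT arrays, those of Bcl2l1 below them.

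Mcl1 codes for a short-lived survival protein on the outer mitochondrial membrane. Its brightest probe set (1448503_at) gave 9.70, 9.62, 9.71 and 9.71 on arrays 1 to 4 of Cbfb+/MYH11, against 8.90, 9.14, 9.41 and 9.36 in WT. Every Cbfb+/MYH11 array was higher than every WT array, and WT arrays 1 and 2 were the lowest. The difference was 0.49 ± 0.11 (SE; limma, adjusted p = 0.00387), which is 1.40-fold and under the 1.5-fold floor. Probe set 1437527_x_at gave 8.54, 8.59, 8.80 and 8.85 in Cbfb+/MYH11, against 7.39, 7.58, 8.23 and 8.16 in WT. The groups did not overlap there either, and Mcl1 rose 1.81-fold (log2 0.86, 95% interval 0.51 to 1.20, adjusted p = 0.00131). Over all 6 Mcl1 probe sets the log2 difference ran from 0.49 to 0.93, and none had overlapping groups. Of these, 4 were called (1437527_x_at, 1456243_x_at, 1416880_at and 1456381_x_at). Only 1416880_at among the called ones lacks the suffix _x_at, and binding of probes to other transcripts was not tested. The plain probe sets 1448503_at (0.49) and 1416881_at (0.54) were under the 1.5-fold floor.

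Mcl1 was higher in both array pairs of the first cross. The 6 log2 differences were 0.64 to 1.11 in arrays 1 and 2, all called, and 0.33 to 0.75 in arrays 3 and 4, where 4 were called. The size depended on scaling. After quantile normalization of the arrays the differences stayed above 0 but were 0.12 to 0.54, and 0 of 6 reached 1.5-fold (limma, adjusted p from 0.00684 to 0.4). With the medians of the arrays set equal, 6 of 6 were called.

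Bcl2l1 codes for BCL-XL, the survival protein of maturing red cells, and for a shorter death-promoting form. On probe set 1420888_at it gave 9.58, 9.68, 9.29 and 9.32 in Cbfb+/MYH11, against 10.30, 10.26, 9.81 and 9.80 in WT. All Cbfb+/MYH11 arrays were lower than all WT arrays, by 0.57 ± 0.13 (limma, log2 difference of -0.57, adjusted p = 0.00597), just under the floor. Probe set 1420887_a_at gave 9.43, 9.29, 8.70 and 8.76 in Cbfb+/MYH11, against 10.22, 10.24, 9.55 and 9.53 in WT. Here Bcl2l1 fell 1.80-fold (log2 -0.84, 95% interval -1.25 to -0.44, adjusted p = 0.00454), with no overlap. On 1426191_a_at it gave 8.02, 8.04, 7.44 and 7.47 in Cbfb+/MYH11, against 8.84, 8.95, 7.97 and 7.90 in WT. This overlapped, since arrays 1 and 2 of Cbfb+/MYH11 lay above WT arrays 3 and 4, and the change was -0.67 (adjusted p = 0.038). That last call was lost without Cbfb+/MYH11 array 3 or 4 or WT array 1 or 2 (up to an adjusted p = 0.122).

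The array pairs also differed for Bcl2l1, by less than the genotypes except in WT on 1426191_a_at. In WT, arrays 1 and 2 exceeded arrays 3 and 4 by 0.48, 0.68 and 0.95 on these 3 probe sets, and in Cbfb+/MYH11 by 0.32, 0.63 and 0.57. Within arrays 1 and 2 the genotype difference was -0.87 to -0.65, and 3 of 3 probe sets were called. Within arrays 3 and 4 it was -0.82 to -0.48, and 1 was called. Quantile normalization gave larger falls than those above (-1.17 to -0.86), with 3 of 3 called. The fourth probe set (1426050_at) lay below 6 on all arrays.

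**Figure D2:**
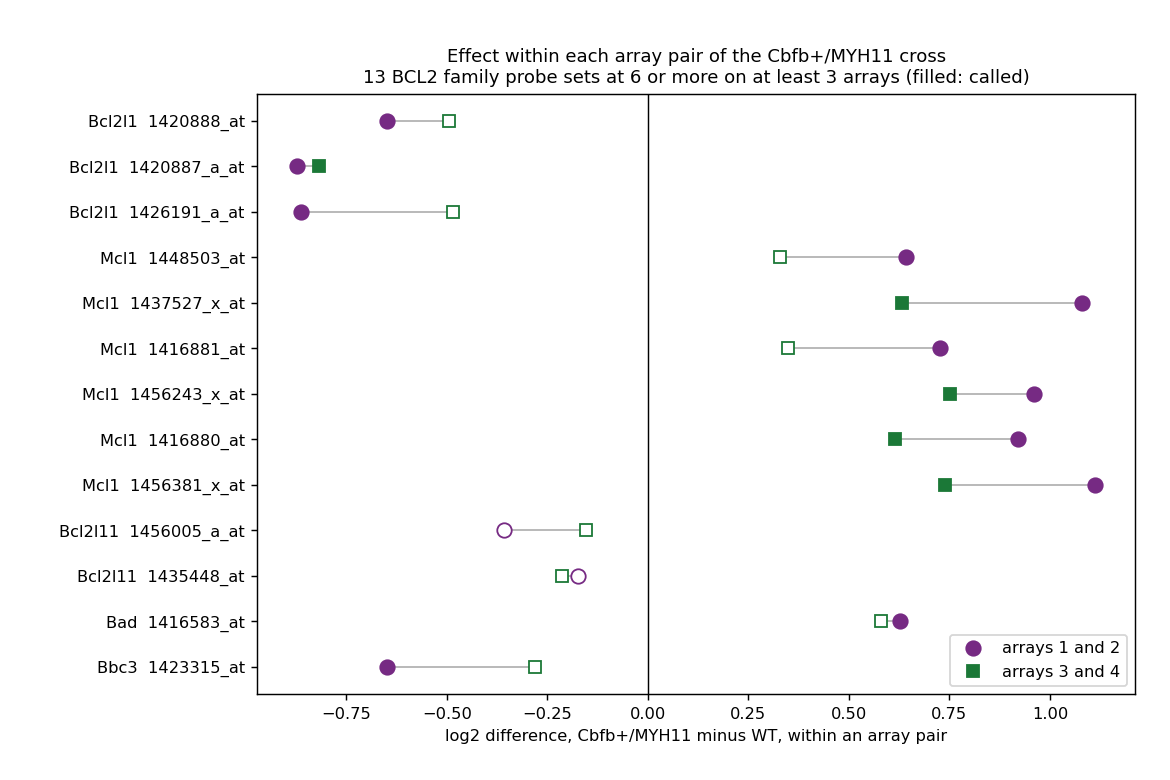
Log2 difference of Cbfb+/MYH11 minus WT (x axis) within arrays 1 and 2 and within arrays 3 and 4, for the 13 probe sets that reached 6 on at least 3 arrays (y axis). Filled points were called. Mcl1 lies right of 0 and Bcl2l1 left of 0 in both pairs.

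Bcl2, the founding survival gene, was dim. Its 5 probe sets lay below 6 on every array and none was called over the 4 arrays a group (log2 differences of -0.35 to -0.13). The pairs disagreed on 2 of them, which fell within arrays 3 and 4 (1437122_at at -0.75, limma, adjusted p = 0.0122, and 1457687_at at -0.75, adjusted p = 0.00179) but were at 0.30 and 0.08 within arrays 1 and 2. On its brightest, 1422938_at, the arrays gave 5.45, 5.53, 5.15 and 4.94 in Cbfb+/MYH11, against 5.75, 5.67, 5.50 and 5.58 in WT, and these overlapped (limma, adjusted p = 0.081).

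Among the effectors, Bak1 opens the mitochondrial membrane when freed from its guards. Probe set 1418991_at gave 5.34, 5.25, 5.97 and 5.65 in Cbfb+/MYH11, against 4.45, 4.23, 5.32 and 5.24 in WT. It rose by 0.74 (limma, adjusted p = 0.0385), but array 2 of Cbfb+/MYH11 lay below WT array 3, so the groups overlapped. It lay below 6 on 13 of the 14 arrays, and the call was lost without Cbfb+/MYH11 array 3 or 4, without WT array 1 or 2, or without Cbfb+/+ array 3 (up to an adjusted p = 0.123). The other Bak1 probe set was at -0.17 and not called.

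Among the BH3-only genes, Bad, which growth factor signalling keeps inactive through phosphorylation, gave 5.74, 5.69, 6.18 and 5.91 in Cbfb+/MYH11, against 4.99, 5.18, 5.49 and 5.44 in WT (1416583_at). All Cbfb+/MYH11 arrays were higher, and Bad rose 1.52-fold (log2 0.60, limma, adjusted p = 0.00686). Its second probe set (1416582_a_at) was at 0.10 (adjusted p = 0.482), so the probe sets disagreed. The first call was lost without Cbfb+/MYH11 array 3, WT array 1 or WT array 2 (down to a log2 difference of 0.50) and after quantile normalization (0.55).

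Bbc3, a p53 target whose product binds all survival members, gave 7.99, 7.89, 7.81 and 7.65 in Cbfb+/MYH11, against 8.51, 8.67, 7.95 and 8.07 in WT. The lowest WT array, array 3, lay below array 1 of Cbfb+/MYH11. The difference of -0.46 (limma, adjusted p = 0.0324) was under the 1.5-fold floor, with -0.65 within arrays 1 and 2 and -0.28 within arrays 3 and 4. After quantile normalization it was -0.86 and called (adjusted p = 0.0035).

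Bcl2l11 codes for BIM, which activates the effectors. Its probe set 1456005_a_at gave 7.02, 7.16, 7.14 and 7.15 in Cbfb+/MYH11, against 7.47, 7.43, 7.41 and 7.19 in WT. Every Cbfb+/MYH11 array was lower, but the difference of -0.26 was not called (limma, adjusted p = 0.0877), and quantile normalization made it -0.61 and called. All 5 probe sets were negative, from -0.59 to -0.17. The largest, 1456006_at, fell (adjusted p = 0.0112), though it reached 6 on 2 WT arrays only. The loss of WT array 1 or 2 or of Cbfb+/MYH11 array 4 ended this call (down to a difference of -0.49), as did equal array medians. Bid, which links the death receptors to mitochondria, was below 6 on all arrays and not called (0.52 on 1417045_at, adjusted p = 0.122). Pmaip1, whose product binds MCL1, lay between 2.64 and 3.34 and was not called.

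The second comparison, Cbfb-/- against Cbfb+/+, addresses the loss of Cbfb. Bbc3 fell, Mcl1 was not called, and Bcl2l1 was lower on every array but called only on its dim probe set. Of the 29 probe sets 0 rose and 2 fell (limma; 0 and 6.90%, against 6.66% and 3.03% of all), and 8 had an unadjusted p under 0.05. Of all 45037 probe sets 13085 had such a p, which is near the same share. All Cbfb-/- arrays lay above all Cbfb+/+ arrays for 2 probe sets (18.7% of all did) and below them for 11 (21.2%).

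Bbc3 gave 7.69, 7.57 and 7.46 in Cbfb-/- and 8.33, 8.14 and 8.07 in Cbfb+/+. The groups did not overlap, and Bbc3 fell 1.52-fold (log2 -0.61, 95% interval -0.97 to -0.24, limma, adjusted p = 0.0284). The call was lost without any 1 of the 6 arrays of this cross, with differences of -0.67 to -0.53 and an adjusted p of up to 0.102, and with equal array medians (-0.55).

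Mcl1 on 1448503_at gave 9.30, 9.24 and 9.24 in Cbfb-/- and 9.42, 9.48 and 9.44 in Cbfb+/+. All Cbfb-/- arrays were lower, by less than the floor (limma, -0.19, 95% interval -0.45 to 0.08, adjusted p = 0.343). Over the 6 Mcl1 probe sets the difference was -0.21 to 0.03 and 0 were called (limma, adjusted p from 0.268 to 0.973), with 0 at an unadjusted p under 0.05. After quantile normalization all 6 were lower in Cbfb-/-, at -0.42 to -0.20 (limma, adjusted p from 0.0176 to 0.319), and 0 reached the 1.5-fold floor.

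Bcl2l1 gave 9.60, 9.62 and 9.42 in Cbfb-/- and 9.91, 9.88 and 9.88 in Cbfb+/+ on 1420888_at. Its 3 bright probe sets had differences of -0.35 to -0.19 and were not called (limma, adjusted p from 0.151 to 0.664), although every Cbfb-/- array lay below every Cbfb+/+ array on each. The dim 1426050_at gave 3.43, 3.98 and 4.03 in Cbfb-/- and 4.50, 4.45 and 4.46 in Cbfb+/+. It fell by 0.66 (adjusted p = 0.0112), at a level where values may be background, and not without Cbfb-/- array 1 (-0.47). Bad gave 6.12, 6.09 and 6.11 in Cbfb-/- and 6.09, 5.67 and 5.61 in Cbfb+/+ and was not called (0.32, adjusted p = 0.225). Bak1 (0.34), Bcl2l11 (-0.41 to 0.03 over its probe sets) and the probe sets of Bcl2, Bid and Pmaip1 were not called either.

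**Figure D3:**
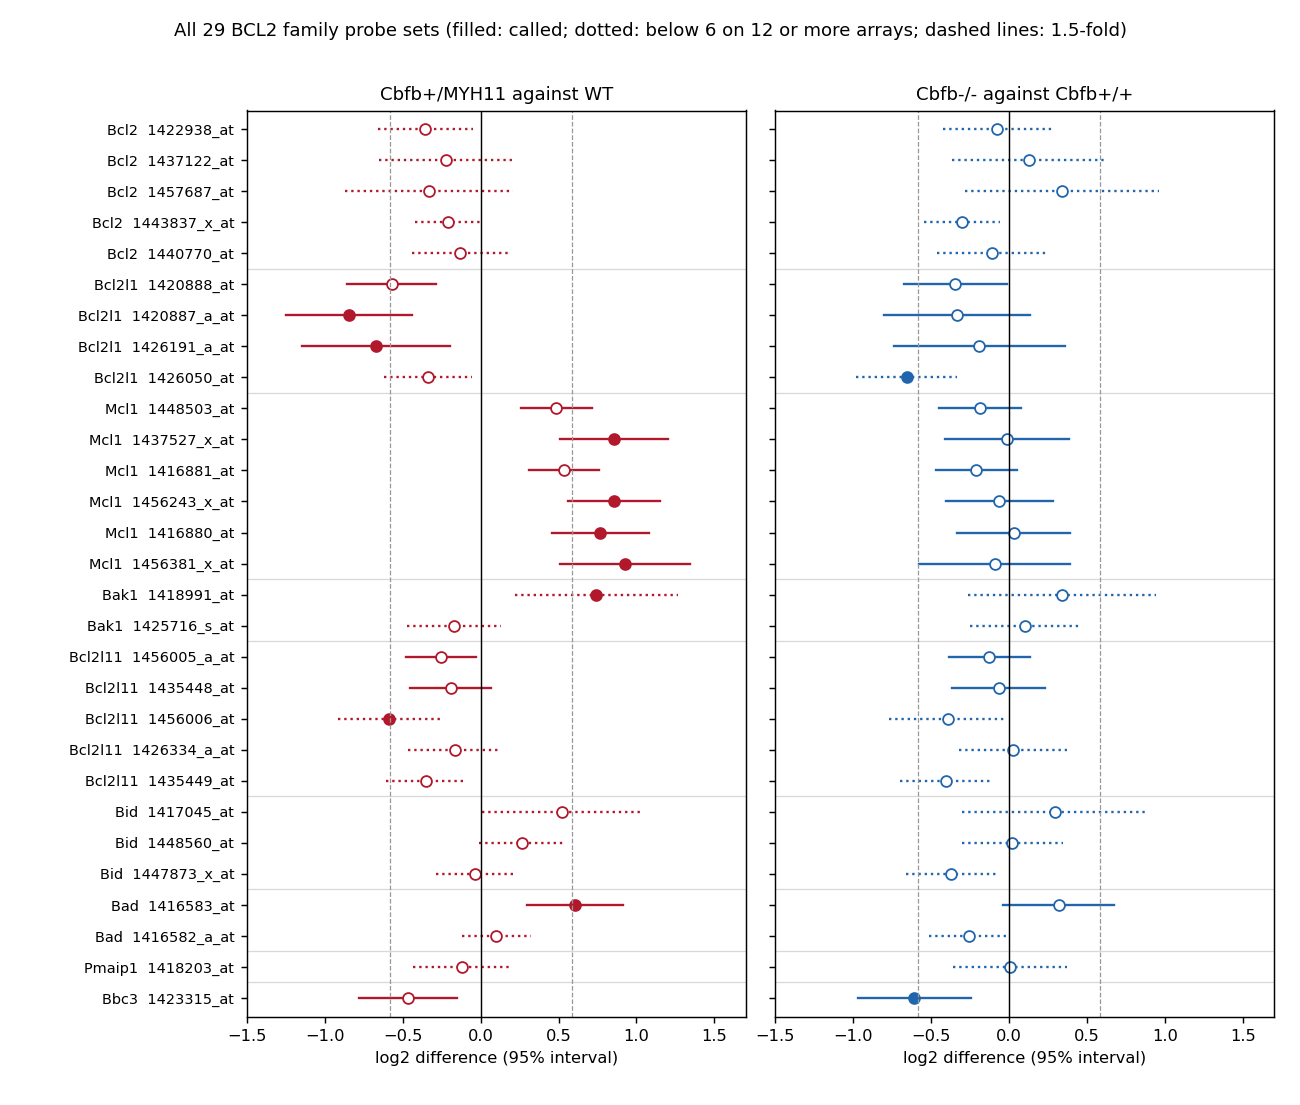
Log2 differences with 95% intervals (x axis) of all 29 probe sets (y axis), for Cbfb+/MYH11 against WT and for Cbfb-/- against Cbfb+/+. Filled points were called, and dashed lines mark 1.5-fold. The 6 Mcl1 probe sets lie at 0.49 to 0.93 for the fusion and at -0.21 to 0.03 for the loss of Cbfb.

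The difference between the effects was tested in the same fit, and Mcl1 was the only member called in it. Of the 29 probe sets 4 were higher in the fusion effect and 0 lower (13.8% and 0, against 4.72% and 2.80% of all probe sets). Of the 29, 7 had an unadjusted p under 0.05 (limma), as did 8886 of all 45037. The 4 were Mcl1 probe sets: 1448503_at (0.67, limma, adjusted p = 0.0187), 1437527_x_at (0.87, adjusted p = 0.0433), 1416881_at (0.75, adjusted p = 0.00909) and 1456243_x_at (0.92, adjusted p = 0.0141). The other 2 stood at 0.74 and 1.02 with adjusted p = 0.0562 and 0.0505. With the array number as a block 6 of 6 were called, and after quantile normalization 3 of 6. The call of 1437527_x_at was lost without any single array except array 1 of Cbfb+/MYH11 and WT arrays 1, 3 and 4 (up to an adjusted p = 0.097), and that of 1448503_at without WT array 1 (0.57). For Bcl2l1 the difference of effects was -0.51 on 1420887_a_at (95% interval -1.13 to 0.11, adjusted p = 0.373), and for Bbc3 it was 0.14 (-0.34 to 0.63, adjusted p = 0.814). Neither shows that the effects are alike.

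The order of the groups differed between genes. For Mcl1 (1448503_at) the group means were 9.68 in Cbfb+/MYH11, 9.45 in Cbfb+/+, 9.26 in Cbfb-/- and 9.20 in WT. Only the last pair of neighbours overlapped. For Bcl2l1 (1420888_at) WT was highest at 10.04, then Cbfb+/+ at 9.89, Cbfb-/- at 9.55 and Cbfb+/MYH11 at 9.47, and all wild-type arrays lay above all mutant arrays, while the wild types overlapped each other, as did the mutants. That separation did not hold on the other bright probe sets of Bcl2l1. On 1420887_a_at all Cbfb-/- arrays (9.63 to 9.80) lay above WT arrays 3 and 4 (9.55 and 9.53). On 1426191_a_at the Cbfb-/- mean (8.60) exceeded that of WT (8.42). For Bbc3 the order was WT (8.30), Cbfb+/+ (8.18), Cbfb+/MYH11 (7.84) and Cbfb-/- (7.57), where each mutant overlapped the other and each wild type the other. For Bcl2l11 (1456005_a_at) the order followed the cross: WT (7.37) and Cbfb+/MYH11 (7.12) lay above Cbfb+/+ (6.37) and Cbfb-/- (6.24), and only the last 2 overlapped. The means of 1435448_at followed the cross too, but the dimmer probe sets of this gene did not. On 1456006_at the order was WT (5.87), Cbfb+/+ (5.51), Cbfb+/MYH11 (5.28) and Cbfb-/- (5.11). It was the same on 1435449_at, and 1426334_a_at followed neither order. For Bad the order was Cbfb-/- (6.11), Cbfb+/MYH11 (5.88), Cbfb+/+ (5.79) and WT (5.28), and only WT stood apart from its neighbour. All neighbours overlapped for Bcl2, Bak1, Bid and Pmaip1.

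The wild types of the crosses differed on single probe sets of these genes. Between Cbfb+/+ and WT, 1 of the 29 probe sets was higher and 1 lower. That is 3.45% each, near the 2.20% and 2.36% of all probe sets. Bcl2l11 on 1456005_a_at gave 6.35, 6.41 and 6.35 in Cbfb+/+ and 7.47, 7.43, 7.41 and 7.19 in WT, with no overlap. It was 2.00-fold lower in Cbfb+/+ (limma, adjusted p = 0.000159), which is more than either mutant differed from its littermates on that probe set. Mcl1 on 1416881_at gave 8.31 on all 3 Cbfb+/+ arrays and 7.32, 7.62, 7.76 and 7.66 in WT (0.72, limma, adjusted p = 0.00144). On that probe set Cbfb+/MYH11 lay lower than Cbfb+/+, at 8.13 ± 0.12 (SD, n = 4). Cross, breeding and array run cannot be told apart in this comparison.

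Genes around the family were read from 6 lists of 58 genes, of which 49 had a probe set, each gene by its brightest one. In Cbfb+/MYH11 14 of them rose and 4 fell (limma; 28.6% and 8.16%, against 14.3% and 4.12% of all genes). In Cbfb-/- 5 rose and 1 fell (10.2% and 2.04%, against 9.09% and 3.70%). Brighter probe sets were called more often. With only those at 6 or more on at least 3 arrays fitted, 13 of 34 rose and 2 fell in Cbfb+/MYH11. Of all 12190 probe sets at that level 3701 rose and 687 fell. In Cbfb-/- 7 of the 34 rose and 1 fell, against 2411 and 891 of the 12190. The counts over the 49 moved with scaling: quantile normalization gave 7 higher and 6 lower for the fusion, and 4 and 6 for the loss of Cbfb. With array pairs averaged to putative pools 0 of the 49 were called in either comparison (limma; 18 and 1 at an unadjusted p under 0.05), so each rise and fall below rests on single arrays counted as replicates. Leaving out 1 array gave 12 to 16 higher and 3 to 5 lower for the fusion. For the loss of Cbfb it gave 2 to 7 higher and 1 lower, with 2 higher without Cbfb-/- array 1 or Cbfb+/+ array 3 and 3 without Cbfb+/+ array 2.

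The mitochondrial arm held most of the rises. Of its 12 measured genes 8 rose and 0 fell in Cbfb+/MYH11, where 14.3% of all genes rose. In Cbfb-/- 3 rose and 0 fell, where 9.09% of all genes rose. Quantile normalization left 4 of the 8 rises and 2 of the 3. Within arrays 1 and 2 there were 9 rises with the fusion, and within arrays 3 and 4 there were 4. With only probe sets at 6 or more on at least 3 arrays fitted, 7 of 11 rose in Cbfb+/MYH11, against 3701 of all 12190. In Cbfb-/- 3 of the 11 rose, against 2411 of the 12190. Cycs, the cytochrome c that leaks from opened mitochondria, rose in both (0.75, limma, adjusted p = 0.000451, and 0.76, adjusted p = 0.00342). So did Vdac2, a channel of the outer membrane that binds BAK (0.91, adjusted p = 0.000676, and 0.73, adjusted p = 0.0167). Casp2, an initiator caspase, rose in Cbfb+/MYH11 (0.80, adjusted p = 2.52e-05), and Aifm1, the apoptosis-inducing factor, rose in Cbfb-/- (0.92, adjusted p = 0.0163) and in Cbfb+/MYH11 (0.81). After quantile normalization Cycs (0.58), Casp2 (0.39), Htra2 (0.47) and Vdac3 (0.27) in Cbfb+/MYH11 and Vdac2 in Cbfb-/- (0.58) came to lie under the 1.5-fold floor. Cycs in Cbfb+/MYH11 was at 0.99 within arrays 1 and 2 and at 0.51, under the floor, within arrays 3 and 4, and Aifm1 at 1.13 and 0.50 (adjusted p = 0.0938 in the second pair). The call of Aifm1 was lost without WT array 1 in Cbfb+/MYH11, and without Cbfb-/- array 1 or Cbfb+/+ array 3 in Cbfb-/-. That of Vdac2 in Cbfb-/- was lost without Cbfb-/- array 1 or Cbfb+/+ array 2 or 3.

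Of all genes 14.3% rose and 4.12% fell in Cbfb+/MYH11, and 9.09% rose and 3.70% fell in Cbfb-/-. Of 7 inhibitors of apoptosis 2 rose in Cbfb+/MYH11. Birc5 (survivin), which also serves cell division, rose by 1.62 (limma, adjusted p = 2.46e-05), and Xiap, which blocks caspases, by 1.11 (adjusted p = 0.00346). Both were called in each pair, and Xiap was at 1.61 within arrays 1 and 2 and at 0.60 within arrays 3 and 4. In Cbfb-/- Birc6 rose (0.70, adjusted p = 0.0444), a call lost without any 1 of the 6 arrays of this cross, while Xiap (0.77, adjusted p = 0.0781) and Birc5 (0.57, adjusted p = 0.0955) were not called. Of 7 genes of the death receptor arm 1 fell in Cbfb+/MYH11, the initiator caspase gene Casp8 (-0.73, adjusted p = 0.00957, not called without WT array 2), and 0 were called in Cbfb-/- (limma, 2 with an unadjusted p under 0.05). Tnfrsf1a, a TNF receptor (-0.54, adjusted p = 0.00883), and its adaptor Tradd (-0.44, adjusted p = 0.016) were under the floor in Cbfb+/MYH11. Quantile normalization made both called there (-0.92, limma, adjusted p = 0.0015, and -0.61, adjusted p = 0.00964), for 3 lower in this arm. It also made Tnfrsf1a called in Cbfb-/- (-0.64, adjusted p = 0.0432).

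Among 12 regulators of family members, Stat5a (-1.18, limma, adjusted p = 9.43e-05) and Stat5b (-0.86, adjusted p = 0.000929), which carry the signal of the erythropoietin receptor to Bcl2l1, fell in Cbfb+/MYH11. They fell after quantile normalization (-1.53 and -1.25) and within each pair (-1.33 and -1.04 for Stat5a, -1.04 and -0.68 for Stat5b). The erythroid transcription factor gene Gata1 rose (0.77, adjusted p = 6.8e-05), as did Epor, the erythropoietin receptor (0.65), and Akt1, the kinase that phosphorylates BAD (1.23). After quantile normalization these 3 were not called (0.51, 0.31 and 0.88). Gata1 was called in each pair (0.86 and 0.68). Akt1 was at 1.89 within arrays 1 and 2 and at 0.57, under the floor, within arrays 3 and 4, and Epor at 0.84 and 0.46. The call of Akt1 was lost without WT array 2, and that of Epor without Cbfb+/MYH11 array 2. In Cbfb-/- the forkhead factor gene Foxo3, which drives Bcl2l11 and Bbc3 in several cell types, fell (-1.10, adjusted p = 0.000327), and Huwe1, a ubiquitin ligase of MCL1, rose (0.84, adjusted p = 0.00656). Gata1 there was at -0.43 (adjusted p = 0.0248) and under the floor. After quantile normalization it was at -0.62 (limma, adjusted p = 0.00708), 1 of 5 regulators then called lower in Cbfb-/-. Of 9 other death and BNIP genes, Bcl2l13 rose (0.67, adjusted p = 0.000279) and Bmf fell (-0.59) in Cbfb+/MYH11, and quantile normalization ended both calls (0.27 and -0.52), as for Bmf did the loss of Cbfb+/MYH11 array 2 or WT array 3 or 4. Bok (-0.46) and Bcl2l15 (0.54) were under the floor as deposited. Quantile normalization took both past it (-0.59, limma, adjusted p = 0.000334, and 0.61, adjusted p = 0.00193). The other survival genes Bcl2l2 (0.40) and Bcl2l10 (-0.04) were not called.

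**Figure D4:**
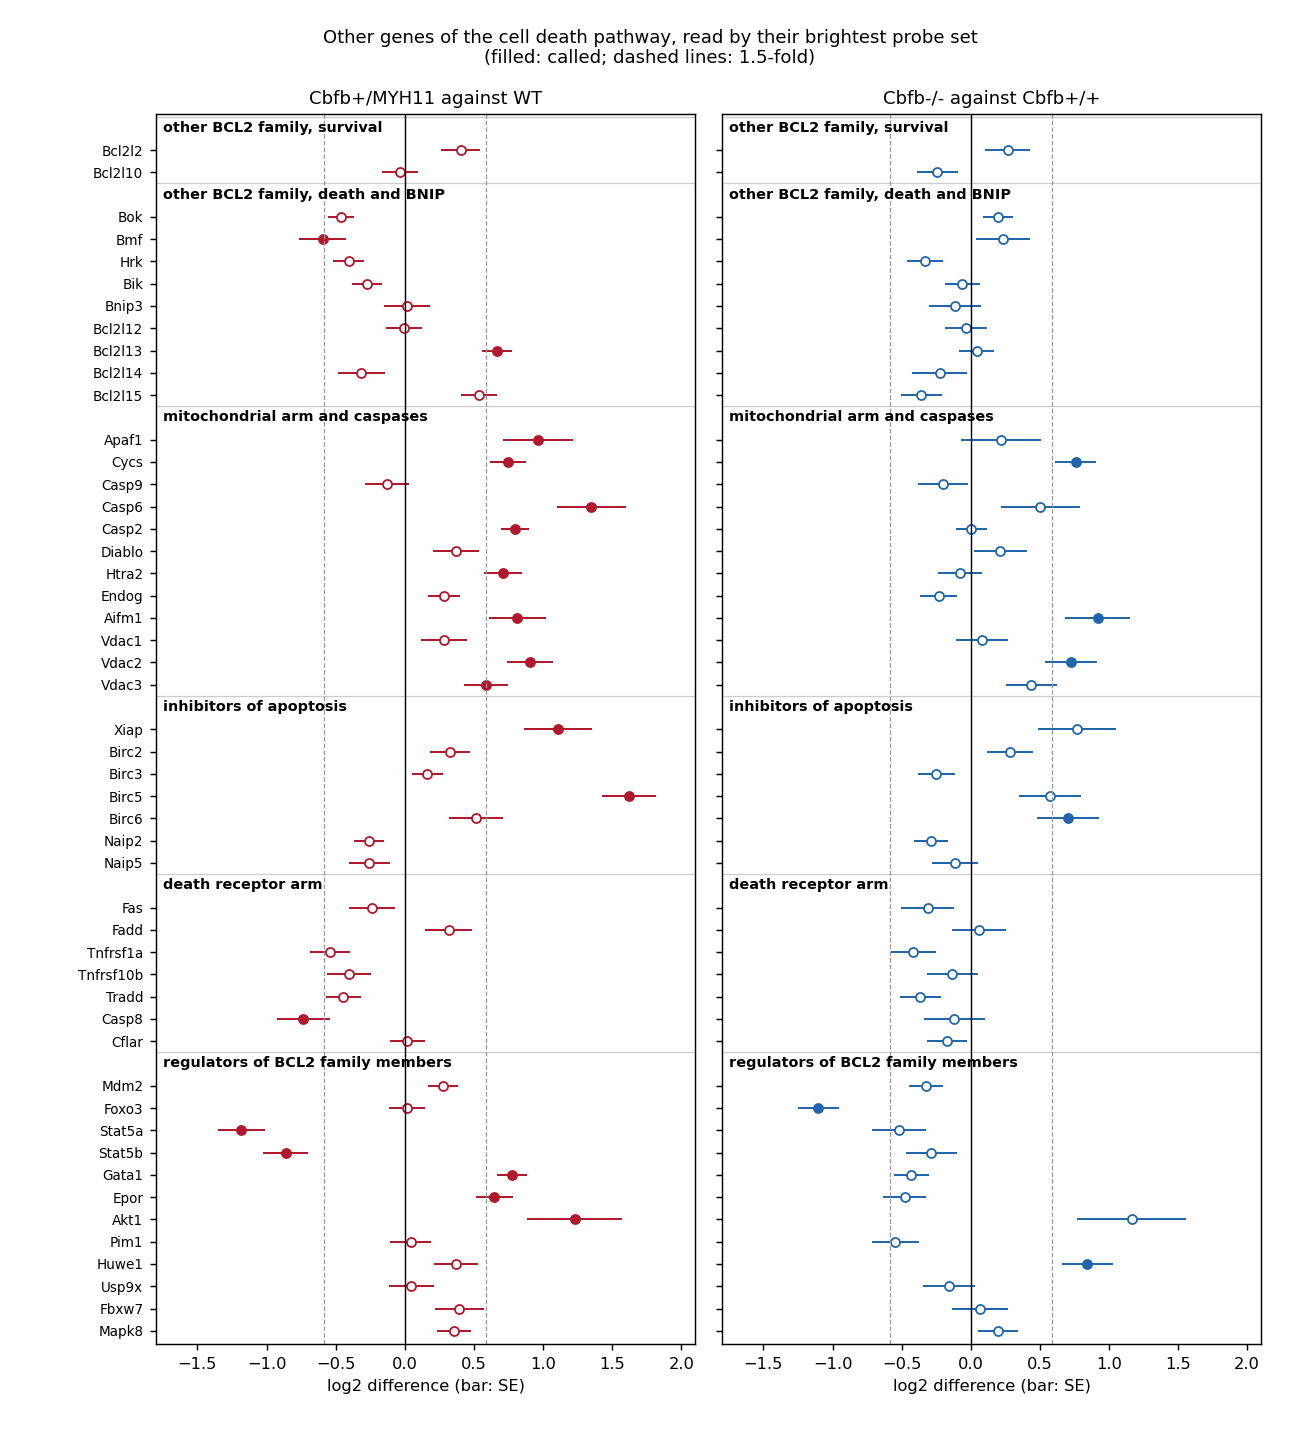
Log2 differences with SE (x axis) of the other genes of the cell death pathway (y axis, by list), for Cbfb+/MYH11 against WT and Cbfb-/- against Cbfb+/+. Filled points were called, and dashed lines mark 1.5-fold. In the mitochondrial arm 8 of 12 genes rose with the fusion (14.3% of all genes did), against 4 after quantile normalization and 0 with averaged array pairs.

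Marker genes of the cells in the blood moved with the genotypes and with the array pairs. Their counts stand beside 14.3% of all genes higher and 4.12% lower in Cbfb+/MYH11, and 9.09% and 3.70% in Cbfb-/-. The 6 platelet markers averaged 5.16 to 5.34 per array in Cbfb+/MYH11 and 7.03 to 8.97 in WT, and 6.28 to 6.36 in Cbfb-/- and 8.42 to 8.54 in Cbfb+/+; 5 and 6 of them fell. The 7 macrophage markers averaged 4.93 to 5.00 in Cbfb+/MYH11 and 5.61 to 7.66 in WT, and 4.77 to 4.93 in Cbfb-/- and 6.84 to 6.94 in Cbfb+/+. The 5 mast cell and basophil markers averaged 6.21 to 6.32 in Cbfb+/MYH11 and 4.03 to 4.61 in WT, against 3.91 to 4.04 in Cbfb-/- and 4.27 to 4.46 in Cbfb+/+. WT arrays 1 and 2 were highest in platelet markers (8.62 and 8.97) and macrophage markers (7.31 and 7.66), and they were also highest in Bcl2l1 on 1420888_at and in Bbc3, and lowest in Mcl1 on 1448503_at. This was not particular to platelet and macrophage markers. The same arrays were the lowest of all 14 in cell cycle genes (6.76 and 6.92) and in neural markers (3.82 and 3.99).

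The 7 cell cycle genes averaged 9.14 to 9.26 in Cbfb+/MYH11 and 6.76 to 8.25 in WT, and all rose. They averaged 8.84 to 8.94 in Cbfb-/- and 8.00 to 8.08 in Cbfb+/+, where 1 rose. Neural markers averaged 5.83 to 7.86 in Cbfb+/MYH11 and 3.82 to 6.17 in WT, and 7.47 to 7.60 in Cbfb-/- and 4.15 to 4.27 in Cbfb+/+. Liver and visceral endoderm markers averaged 5.29 to 6.62 in Cbfb+/MYH11 and 5.70 to 8.26 in WT, and the array pairs went in opposite directions. Arrays 1 and 2 gave 5.39 and 5.29 in Cbfb+/MYH11, against 8.13 and 8.26 in WT. Arrays 3 and 4 gave 6.62 and 6.62, against 5.70 and 5.83. In the second cross these markers averaged 8.34 to 8.53 in Cbfb-/- and 7.03 to 7.05 in Cbfb+/+. Of 6 granulocyte markers 2 fell in Cbfb+/MYH11 and 3 in Cbfb-/-, and of 5 progenitor markers 2 rose and 1 fell in Cbfb+/MYH11 and 2 fell in Cbfb-/-. Of 5 endothelial markers, none of which reached 6 on 3 arrays, 1 rose and 1 fell in Cbfb+/MYH11 and 2 rose in Cbfb-/-, and of 5 mesenchymal ones 1 fell in Cbfb+/MYH11. None of the 5 lymphoid markers reached 6 on 3 arrays. The part of any of these cells in the results for the BCL2 family was not tested, and in bulk RNA fewer cells of a type and less RNA per cell cannot be told apart.

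Some genes followed the same profile over the 14 arrays as the members, by Pearson r among 7392 genes that reached 6 on at least 3 arrays. The arrays share their pools and crosses, so r describes these arrays only. For Bbc3 the likest were Selenok (0.97), Lcp1 (0.97) and Setd1b (0.96), for Bad Eif3h (0.95), Coa8 (0.95) and Prelid1 (0.94), and for Bak1 Zfp593, Yipf5 and Tmem97 (0.94 each). For Bcl2l1 they were the kinase gene Dyrk3 (0.99), Ccndbp1 (0.97) and Ceacam1 (0.97), and for Mcl1 they were Mzt1 (0.96), Rab5if (0.96) and Ampd3 (0.95), the AMP deaminase of red cells.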

How the data were processed

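Per the labels, biotin-labelled RNA of pooled blood was hybridized to Affymetrix arrays for the mouse. The authors deposited log2 values, and the submitters' processing notes name RMA and Affymetrix Expression Console without versions. They were used as deposited. Of 45101 probe sets, 64 array controls were left out and 45037 tested with no filter on low values. Symbols came from the platform annotation: 34945 probe sets carried 1 symbol, 932 several (not used for any gene) and 9160 none. Gene positions and promoters came from RefSeq tables (GRCm38.p6).

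Groups followed the sample titles. All 14 arrays were fitted in 1 model of 4 groups with limma 3.58.1 (lmFit, contrasts.fit, eBayes) in R 4.3.3, with 10 residual and 4.65 prior degrees of freedom. P-values were adjusted by Benjamini and Hochberg over all probe sets of a comparison. A probe set was called when its adjusted p was below 0.05 and its change 1.5-fold or more, and only called ones are said to have risen or fallen. Effects are mutant minus littermate, Cbfb+/+ minus WT, and fusion effect minus null effect. The fit was also run on simulated data in which all arrays varied independently. That run cannot show how the array pairs affect the p-values. Precision is limited by how few arrays there are.

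The members and the gene lists were chosen with earlier results of these data known. Named are all members, the 3 genes per pathway list with the smallest adjusted p in each mutant comparison, and the 3 genes likest to each member whose brightest probe set was called. Epor, Akt1, Bmf, Htra2, Vdac3, and the genes likest to Bcl2l1 and Mcl1, were named after their values were seen.

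Same-numbered arrays of the first cross deviated from their group means together (correlations of 0.521, 0.407, 0.499 and 0.499), but so did differently numbered arrays of the same pair, 1 with 2 or 3 with 4 (0.417 to 0.514), so the correlation follows these pairs and not the single number. Same-numbered arrays of the second cross did not (0.0342, 0.0114 and 0.0168). The numbers come from the labels. Alternatives were a level filter, 1 probe set per gene, no fold floor, quantile normalization, equal array medians, a trended prior, crosses fitted alone, a replicate block, averaged array pairs, single pairs, and leaving out each array.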

Additional observations from a re-analysis of the deposited data

Results flagged for a closer look

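In groups of 4 arrays, single values stood apart from the other 3 by a gap test at the 95% level, which chance passes in about 1 in 20 groups, and 58 groups were screened. Mcl1 on 1448503_at was at 9.62 on Cbfb+/MYH11 array 2, below the other 3, and on 1416881_at the same array was above them at 8.31. Bcl2l11 on 1456005_a_at was at 7.02 on Cbfb+/MYH11 array 1, below the others of its group, and on 1435448_at at 6.79 on WT array 3, above the others. None of these probe sets was called for Cbfb+/MYH11 against WT.

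The effect of the fusion exceeded that of Cbfb loss for Mcl1 in the test of the difference itself. The log2 difference of effects was 0.67 on 1448503_at, 0.87 on 1437527_x_at, 0.75 on 1416881_at and 0.92 on 1456243_x_at (limma, adjusted p = 0.0187, 0.0433, 0.00909 and 0.0141). All 4 Cbfb+/MYH11 arrays were above all 4 WT arrays on each of them. With the arrays averaged to putative pools 0 probe sets of all genes were called in this difference, with 1924 at an unadjusted p under 0.05.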

How the results depend on the processing

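No called result changed direction under any alternative. The 6 higher and 3 lower probe sets of Cbfb+/MYH11 against WT became 1 and 6 with quantile normalization, 8 and 1 with equal array medians, and 2 and 0 with 1 probe set per gene. That last setting tests 9 of the 29 member probe sets and the level filter 13, so member counts under them are out of fewer. With no fold floor 6 were lower, and in arrays 1 and 2 alone 5. Leaving out 1 array gave 4 to 7 higher and 1 to 4 lower, with 1 lower without Cbfb+/MYH11 array 4, WT array 1 or WT array 2. The 2 lower of Cbfb-/- against Cbfb+/+ became 1 with the level filter, with 1 probe set per gene and with equal medians, and 0 to 2 without 1 array (0 without Cbfb-/- array 1). The 4 higher in the difference of effects became 1 with 1 probe set per gene, 3 with quantile normalization and 3 to 6 without 1 array. The 1 higher and 1 lower of Cbfb+/+ against WT became 0 higher with 1 probe set per gene, 2 higher with quantile normalization and 2 lower with no floor, and stayed 1 and 1 without any single array. Averaged array pairs gave 0 calls among the members in every comparison (limma; 8, 1, 0 and 2 at an unadjusted p under 0.05 in the order above). Over all 45037 probe sets that fit called 48 higher and 10 lower for the fusion and 0 in the others. It gave 6306, 1728, 1924 and 1736 of them an unadjusted p under 0.05, in the same order. The second cross then has 1 pool a genotype, assumed to vary like those of the first. With the replicate block the counts were 6 higher and 3 lower for the fusion, 2 lower for the null and 6 higher, against 4, in the difference, and pairing changed no other member count. Of all calls for the fusion 78.2% were higher, against 61.4% with quantile normalization and 89% with equal medians, and for the null 68.7%, against 55.3% and 75%. The median of all probe sets for the fusion, -0.11, was 0.00 with equal medians. Of the 49 pathway genes, 14 higher and 4 lower for the fusion became 7 and 6 with quantile normalization, 13 and 2 of the 34 tested with the level filter, 9 and 3 in arrays 3 and 4 alone and 0 with averaged pairs (limma; 18 at an unadjusted p under 0.05). For the null 5 and 1 became 4 and 6 with quantile normalization, 0 with averaged pairs (limma; 1) and 2 to 7 higher without 1 array. The cause of these shifts was not tested. Dim probe sets limit what can be said of Bcl2, Bid, Bak1 and Pmaip1.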
